A study of Saccharomyces cerevisiae with 5 samples.

Results

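The genes described here are those of chromosome I of the budding yeast Saccharomyces cerevisiae, measured as poly(A) RNA in 5 strains. They are the rows of the expression table whose systematic ID starts with YAL (left arm) or YAR (right arm), with a mean of at least 5 FPKM over the strains and a value above 0 in each. FPKM counts fragments per kilobase of transcript, scaled to the mapped fragments of the library. Of 112 rows with such an ID, 10 were left out by name, among them genes of purine synthesis, glycolysis and the phosphate response, and 92 of the other 102 passed the filter. The table holds 6567 rows in all, of which 6150 pass the same filter. Of the 92 genes, 69 lie on the left arm and 23 on the right arm, and 76 have an ID in the R64 annotation that gives a position. The group was selected on its FPKM values, because chromosome I is high in ino80d, so the ino80d values are a description without a test.

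The strains were all sampled in exponential growth from asynchronous liquid cultures in rich medium. WT was the recorded parent, BY4741, MATa with his3, leu2, met15 and ura3 alleles. The 4 mutants are recorded as made in it by putting LEU2 in place of INO80 (ino80d), ARP8 (arp8d), ARP5 (arp5d) or IES6 (ies6d). By this record all 4 mutants carry LEU2 as well as their deletion, while WT does not. RNA of the marker genes LYS2 and MET17 also differed between strains, as given below, which the record does not account for. Each strain has 1 deposited value per gene for 2 biological replicates, so the values below come without an error between replicates and no test was possible. Levels listed without strain names are in the order WT, arp8d, arp5d, ies6d and ino80d.

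INO80 is a chromatin remodelling complex that moves nucleosomes along DNA. Ino80 is its motor subunit, Arp8 and Arp5 are actin-related subunits of different modules, and Ies6 works with Arp5. Chromosome I is the shortest of the 16 yeast chromosomes, at 230218 bp in R64, and its genes have no common function. They include enzymes of sulfur amino acid and alcohol metabolism, proteins of the secretory pathway and of cell division, a tandem cluster of DUP240 membrane protein genes on the right arm, and flocculin genes, which encode cell wall adhesins, towards both ends. The centromere lies at 151465 to 151582, so the left arm is the longer.

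The deleted gene was near 0 in its own strain, at 0.0257 FPKM for INO80, 0.0986 for ARP8, 0.0687 for ARP5 and 0.211 for IES6, against at least 25.7 FPKM in every other strain. The strains also differed at 2 other markers. LYS2 lay at 0.0138 FPKM in ino80d and 0.0390 in arp5d, against 36.9 in WT, and MET17 lay at 807 FPKM in ino80d and 564 in arp8d, against 0.482 in WT. MET17 is another name of MET15, the gene of the met15 allele recorded for BY4741. Only ino80d was both near 0 for LYS2 and high for MET17. By these values ino80d, arp8d and arp5d differed from WT by more than the recorded deletion and LEU2. What part such differences have in the values below was not tested. The depth of the libraries is unknown. The kit did not keep the strand of the RNA, so reads of overlapping genes cannot be told apart.

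The 5 sequences below are 250 bases before and 50 bases after the annotated start of neighbouring genes of chromosome I. They are shown because each set holds relatives that lie side by side and differ in the strains, as described further on. They were read from the R64 genome, and capitals mark the stress response element AGGGG, or CCCCT on the other strand.
UIP3 (R64, chrI:183520-183819, + strand): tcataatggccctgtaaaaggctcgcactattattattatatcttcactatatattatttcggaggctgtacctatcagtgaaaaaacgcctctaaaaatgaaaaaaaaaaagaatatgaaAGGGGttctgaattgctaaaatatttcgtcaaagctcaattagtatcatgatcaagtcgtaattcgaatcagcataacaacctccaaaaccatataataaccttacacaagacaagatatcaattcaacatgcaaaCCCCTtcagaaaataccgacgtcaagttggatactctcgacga
KTD1 (R64, chrI:184642-184941, + strand): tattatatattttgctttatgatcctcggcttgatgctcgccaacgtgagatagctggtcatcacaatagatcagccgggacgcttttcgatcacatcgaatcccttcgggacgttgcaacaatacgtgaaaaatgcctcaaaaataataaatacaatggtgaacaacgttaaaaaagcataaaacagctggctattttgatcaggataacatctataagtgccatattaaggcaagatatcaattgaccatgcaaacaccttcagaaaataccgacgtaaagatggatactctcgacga
DFP2 (R64, chrI:186071-186370, + strand): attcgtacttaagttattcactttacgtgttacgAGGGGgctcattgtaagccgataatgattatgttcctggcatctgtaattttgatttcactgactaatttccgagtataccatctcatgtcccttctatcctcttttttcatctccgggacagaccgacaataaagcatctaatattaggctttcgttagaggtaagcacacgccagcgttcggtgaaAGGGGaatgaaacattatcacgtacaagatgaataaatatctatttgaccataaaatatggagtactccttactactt
BDH2 (R64, chrI:33198-33497, + strand): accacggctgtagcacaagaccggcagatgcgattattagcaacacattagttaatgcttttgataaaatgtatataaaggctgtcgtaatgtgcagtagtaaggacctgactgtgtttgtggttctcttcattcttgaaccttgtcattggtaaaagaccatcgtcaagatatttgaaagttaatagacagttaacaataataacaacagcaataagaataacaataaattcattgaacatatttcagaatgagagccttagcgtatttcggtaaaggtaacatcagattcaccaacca
BDH1 (R64, chrI:34905-35204, + strand): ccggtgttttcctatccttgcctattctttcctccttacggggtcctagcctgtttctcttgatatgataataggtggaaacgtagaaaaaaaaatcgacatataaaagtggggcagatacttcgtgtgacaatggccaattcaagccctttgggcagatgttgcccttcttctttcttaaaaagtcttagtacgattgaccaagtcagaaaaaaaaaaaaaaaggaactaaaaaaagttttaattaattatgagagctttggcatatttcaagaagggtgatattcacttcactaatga

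As a group, chromosome I genes were higher in ino80d than in each of the other strains, and by a similar factor along the chromosome. The median gene of the 92 lay at 35.7 FPKM in WT, 39.3 in arp8d, 42.8 in arp5d, 41.2 in ies6d and 65.3 in ino80d, so that ino80d was highest and WT lowest. Changes are given as the log2 ratio of FPKM + 1, a scale that understates the change of low genes. The median log2 ratio to WT was 0.15 in arp8d, 0.13 in arp5d, 0.09 in ies6d and 0.70 in ino80d. Over the 6058 other rows that pass the filter it was -0.03, -0.03, -0.03 and -0.02 in the same order. The 4 comparisons share the WT value, so a low WT value would raise a gene in all of them.

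To set WT aside, ino80d was compared with the mean of log2 values of the other 3 mutants. The median log2 ratio was 0.55, or 1.47-fold, over the 92 genes and -0.01 over the other rows. It was 0.53 against arp8d alone, 0.56 against arp5d alone and 0.55 against ies6d alone. Of the 92 genes, 90 exceeded the other 3 mutants' mean, as did 49.3% of all 6150 rows. Further, 84 lay above the highest of the other 3 mutants, where 27.6% of all rows did. In 79 genes ino80d was the highest of the 5 strains, where 20.5% of all rows did so. These shares describe the pattern by which the chromosome was chosen.

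**Figure D1:**
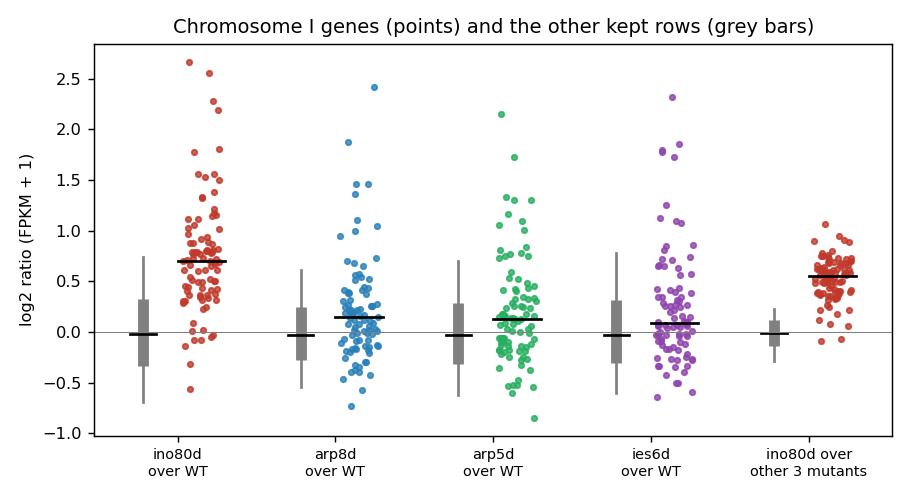
Each point is 1 of the 92 chromosome I genes, placed by its log2 ratio (FPKM + 1) in the contrast on the x axis, with a black line at their median. The grey bars span the 10th to 90th percentile (thin) and the quartiles (thick) of the 6058 other rows. The points of ino80d over the other 3 mutants gather around 0.55, in a narrower band than the points of any mutant over WT. The grey bar of the other rows is narrower in that contrast as well.

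By fold, ino80d was at least 1.5-fold above WT in 56 of the 92 genes, beside 14.9% of all rows, and at least 2-fold above it in 22, beside 6.55%. None was 1.5-fold lower, beside 13.2%. Against the other 3 mutants, 41 were at least 1.5-fold higher, beside 1.85% of all rows, none was 1.5-fold lower, beside 1.93%, and 1, YAL047W-A, was 2-fold higher, beside 0.293%. A common ratio of 1.47 lies just under the 1.5-fold line, so that small differences decide which genes are counted.

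In the other mutants the counts were much smaller. In arp8d 13 genes were at least 1.5-fold higher than WT, beside 10.7% of all rows, and 1, EFB1, was lower, beside 8.21%. In arp5d 17 were higher, beside 13.1%, and 2, BDH1 and YAL037C-B, were lower, beside 10.9%. In ies6d 19 were higher, beside 14.2%, and 2, PMT2 and YAL037C-B, were lower, beside 10.2%. The counts of lower genes were under the share of all rows in each mutant. The ID YAL037C-B is not in the annotation, so its overlap with other genes was not checked.

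Across the genome, no other chromosome had a like median in ino80d. Over the 84 annotated rows of chromosome I that pass the filter, 8 of the left-out genes included, the median log2 ratio of ino80d to the other 3 mutants was 0.55. The medians of the other 15 chromosomes ran from -0.08 to 0.02. The chromosomes closest in length are VI and III. Chromosome VI, at 270161 bp with 110 rows, had a median log2 ratio of -0.01 in this contrast, and chromosome III, at 316620 bp with 156 rows, had -0.08. Against WT, chromosome VI had medians of 0.07 in arp8d, 0.13 in arp5d, 0.07 in ies6d and 0.10 in ino80d. The medians of chromosome I in arp8d, 0.10, arp5d, 0.13, and ies6d, 0.08, were thus close to those of chromosome VI. The largest median outside chromosome I was that of chromosome III in ies6d, at 0.36.

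**Figure D2:**
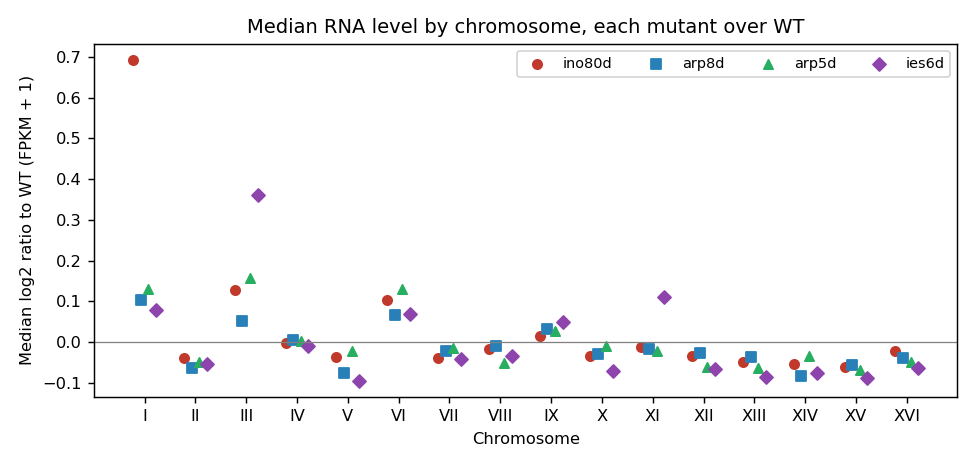
For each of the 16 chromosomes the median log2 ratio to WT (FPKM + 1) of its annotated rows that pass the filter is plotted, with 1 symbol per mutant. Chromosome I in ino80d stands at 0.69, and the next highest median is 0.36, for chromosome III in ies6d.

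The difference of ino80d ran along both arms. The median log2 ratio of ino80d to the other 3 mutants was 0.56 over the 69 genes of the left arm and 0.53 over the 23 genes of the right arm. All 23 right-arm genes and 67 of the 69 left-arm genes lay above 0. In windows of 25 kb from the left end, the medians over annotated genes were 0.60, 0.50, 0.62, 0.55, 0.56, 0.54, 0.58 and 0.59 up to 200 kb, with 5 to 12 genes in each. The last window, from 200 to 225 kb, held 2 genes with a median of 0.23. Across the 76 annotated genes, which share their libraries, Spearman's rho of the ratio with the distance from the centromere was -0.02. It was -0.02 over the 57 genes of the left arm and -0.32 over the 19 genes of the right arm. The arms were thus alike in their medians, and the lowest ratios among annotated genes of the right arm, those of FLO1 and YAR064W, were at its far end.

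**Figure D3:**
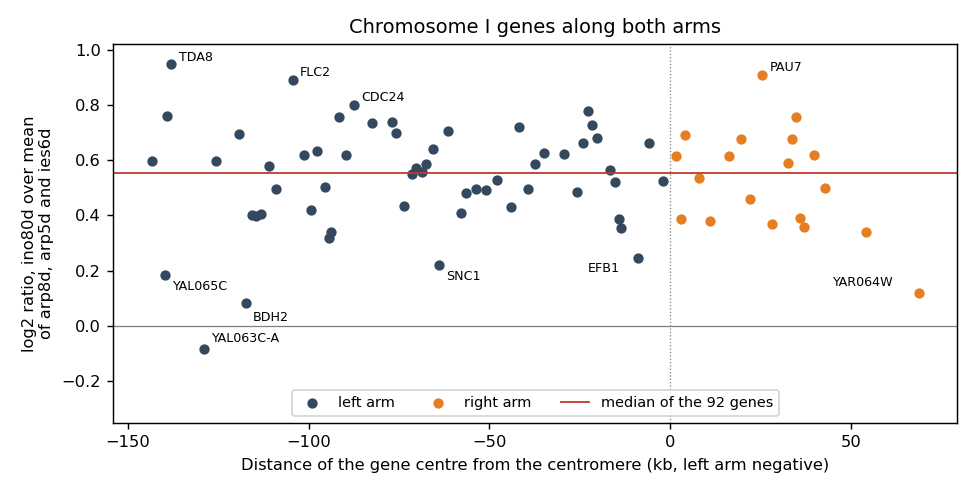
Each point is an annotated chromosome I gene, with the distance of its centre from the centromere in kb on the x axis (left arm negative) and its log2 ratio of ino80d to the mean of the other 3 mutants on the y axis. The red line is the median of the 92 genes, 0.55. The points scatter around it on both arms, and BDH2, YAL063C-A and YAL065C on the left and YAR064W on the right lie near 0.

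The genes nearest the centromere had ratios on both sides of the common value. TFC3 (YAL001C, 147594 to 151166), the largest subunit of the RNA polymerase III factor TFIIIC, has 2 coding exons and was the nearest gene on the left. It lay at 19.4 FPKM in WT, 21.8 in arp8d, 22.1 in arp5d, 20.8 in ies6d and 31.4 in ino80d, a log2 ratio of ino80d to the other mutants of 0.52. NUP60 (YAR002W, 152257 to 153876), a protein of the nuclear pore basket, was the nearest on the right, at 109.9, 96.3, 110.6, 97.5 and 155.7 FPKM and a log2 ratio of 0.62. In both genes ino80d was the highest strain and the other 4 lay close together. VPS8, a vacuolar sorting gene next to TFC3, had a log2 ratio of 0.66, and SWD1, a subunit gene of the COMPASS histone methylase, had 0.69. Lower values stood beside them, 0.39 for ERP1, between NUP60 and SWD1, and 0.25 for EFB1, to the left of VPS8.

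Towards the ends the values spread more widely. The 7 annotated genes within 25 kb of an end had log2 ratios of ino80d to the other mutants from -0.08 to 0.95, with an SD of 0.37 and a median of 0.34. The 69 genes farther in ran from 0.08 to 0.91, with an SD of 0.16 and a median of 0.57. The genes at the ends were also low, with a median of 4.63 FPKM in WT against 45.2 farther in, and what part level has in the spread was not tested. SEO1 (YAL067C, 7235 to 9016), a putative permease and the outermost gene of the left arm that passed the filter, lay at 4.21 FPKM in WT, 6.71 in arp8d, 9.84 in arp5d, 6.73 in ies6d and 12.1 in ino80d. TDA8 (YAL064C-A, 13363 to 13743), of unknown role, lay at 4.63, 14.5, 11.6, 11.3 and 24.8 FPKM. Both were highest in ino80d and lowest in WT, with log2 ratios of ino80d to the other mutants of 0.60 and 0.95.

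At the far right end, FLO1 (YAR050W, 203403 to 208016), the main flocculin, lay at 2.42 FPKM in WT, 5.82 in arp8d, 7.59 in arp5d, 7.17 in ies6d and 8.90 in ino80d. YAR064W (220198 to 220497), annotated as a pseudogenic fragment related to flocculins, lay at 14.1, 24.2, 17.1, 24.3 and 23.5 FPKM. Its log2 ratio of ino80d to the other mutants was 0.12, since arp8d and ies6d were as high as ino80d. Both genes have a near-identical copy (at least 90% identity over at least 50% of the length), FLO9 on the left arm for FLO1 and YHR213W-B on another chromosome for YAR064W.

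Such copies touch 8 annotated genes, since it is not known how the authors assigned reads that fit several places. Their log2 ratios of ino80d to the other mutants ran from 0.12 to 0.91 with a median of 0.37, and those of the 68 annotated genes without a copy had a median of 0.57. For 4 of the 8, all copies lie on other chromosomes. MST28, a DUP240 gene with the copy MST27, had 0.36, YAR009C, a truncated Ty1 retrotransposon gene with many copies, had 0.38, YAR064W had 0.12, and PAU7, a seripauperin gene with the copy PAU5, had 0.91. What part reads from the copies have in these values was not tested.

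Around their median the genes of the chromosome spread about as widely as other genes did around theirs. The quartiles of the log2 ratio of ino80d to the other mutants were 0.40 and 0.66 over the 92 genes and -0.14 and 0.12 over the other rows. The SD was 0.21 and 0.28, but that of the other rows includes values from -5.08 to 6.31. Of the 92, 77 lay between 0.3 and 0.8, where 5.41% of the other rows did, 10 lay under 0.3 and 5 over 0.8. Adjacent annotated genes differed by a median of 0.14 in log2 ratio, and any pair of the 76 by 0.17. POP5 (YAL033W), a subunit of RNase P and RNase MRP, MTW1 (YAL034W-A), a kinetochore gene, and MDM10 (YAL010C), of the mitochondrial outer membrane, stood closest to the median. MTW1 lay at 32.5 FPKM in WT, 38.0 in arp8d, 36.3 in arp5d, 39.4 in ies6d and 55.9 in ino80d. MDM10 lay at 32.4, 39.1, 44.9, 38.7 and 60.9 FPKM. For both, ino80d stood above 4 strains that were near each other.

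The genes with the highest ratios had no common role. YAL047W-A had the highest log2 ratio of ino80d to the other mutants, 1.07, at 14.6 FPKM in WT, 17.9 in arp8d, 13.9 in arp5d, 15.7 in ies6d and 34.2 in ino80d. Its ID is not in the annotation, so its overlap with other genes was not checked. FLC2 (YAL053W, 45899 to 48250), a putative flavin transporter, lay at 78.0, 89.2, 103, 87.3 and 173 FPKM, a log2 ratio of 0.89. CDC24 (YAL041W, 62840 to 65404), the exchange factor that activates Cdc42 for bud growth, lay at 39.7, 39.4, 47.7, 42.7 and 75.8 FPKM, a log2 ratio of 0.80. In these 3 genes ino80d stood apart above 4 strains that were closer together. PAU7 (YAR020C), the seripauperin gene, lay at 71.3, 63.9, 60.1, 88.7 and 132 FPKM, a log2 ratio of 0.91. TDA8 and YAR047C, with 0.95 and 0.90, differed in that WT stood below all 4 mutants.

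The genes with the lowest ratios were mostly those in which ino80d did not exceed all the other mutants. BDH2 (YAL061W, 33448 to 34701), a relative of the butanediol dehydrogenase gene beside it, lay at 31.5 FPKM in WT, 88.4 in arp8d, 68.6 in arp5d, 116.7 in ies6d and 94.6 in ino80d. All 4 mutants were above WT and ino80d lay among them, with a log2 ratio of 0.08. YAL063C-A (22395 to 22685), of unknown role, lay at 10.7, 10.2, 12.9, 9.58 and 10.1 FPKM, with a ratio of -0.08, and all 5 strains were close. YAL065C (11565 to 11951), which resembles flocculins, had a ratio of 0.18. YAL004W and YAL037C-B, whose IDs are not in the annotation, had -0.07 and 0.06. Without a position their overlap with other genes was not checked, so their values may include reads of another gene. By number their IDs stand next to those of SSA1 (YAL005C) and CDC19 (YAL038W), both left out by name. YAL004W lay at 185, 244, 249, 243 and 233 FPKM, and SSA1 at 151, 205, 204, 206 and 205. In both, WT was lowest and the 4 mutants were near each other. Whether these rows share reads was not tested. YAL037C-B had the highest level of the 92 genes, at 8989 FPKM in WT, 6837 in arp8d, 4997 in arp5d, 5763 in ies6d and 6077 in ino80d. With the median of the 92 genes as the common value, 2 genes were at least 1.5-fold away from it, YAL004W and YAL063C-A, both below, and 90 were within it. YAL004W was also the 1 gene with ino80d below the lowest of the other 3 mutants, where 28.3% of all rows were.

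BDH1 (YAL060W, 35155 to 36303), the butanediol dehydrogenase gene next to BDH2, behaved otherwise. It lay at 138.6 FPKM in WT, 112.8 in arp8d, 91.2 in arp5d, 116.2 in ies6d and 140.4 in ino80d. Here ino80d was close to WT and above the other mutants, with a log2 ratio to them of 0.40. The upstream windows of BDH2 and BDH1 printed above hold no stress response element.

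Against WT the genes spread more than against the other mutants, with an SD of the log2 ratio of ino80d of 0.57 to WT and 0.21 to the other mutants. The other rows did so as well, with SDs of 0.72 and 0.28. From the median of 0.70, 13 genes were at least 1.5-fold above and 10 at least 1.5-fold below. Of these, YAR053W, YAR047C, KTD1, TDA8, DFP2 and YAR030C were at least 2-fold above, and EFB1 and YAL037C-B at least 2-fold below. YAR053W lay at 5.98 FPKM in WT, 36.4 in arp8d, 30.0 in arp5d, 34.0 in ies6d and 43.3 in ino80d. YAR047C lay at 3.71, 16.3, 10.6, 15.3 and 26.7 FPKM. Neither ID is in the annotation, and in both WT stood apart below all 4 mutants.

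In 11 of the 92 genes all of arp8d, arp5d and ies6d were at least 1.5-fold higher than WT as well, beside 8.31% of all rows. The genes were PSK1, YAL037W, BDH2, TDA8, CDC15, KTD1, DFP2, YAR030C, YAR047C, FLO1 and YAR053W. YAR030C, YAR047C and YAR053W have no annotated position, so their overlap with other genes was not checked. Their log2 ratio of ino80d to WT ran from 1.21 to 2.67 with a median of 1.77, against 0.65 over the other 81 genes. The 11 were chosen by the same WT values, so a high ratio to WT is favoured by that choice. Their log2 ratio of ino80d to the other mutants had a median of 0.62, against 0.54 over the other 81. None of the 92 genes was at least 1.5-fold lower than WT in all of arp8d, arp5d and ies6d, beside 5.15% of all rows.

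KTD1 (YAR028W, 184892 to 185596), a DUP240 gene whose protein guards the cell against the K28 killer toxin, lay at 78.8 FPKM in WT, 204 in arp8d, 263 in arp5d, 264 in ies6d and 388 in ino80d. DFP2 (YAR029W, 186321 to 186545), the next gene, lay at 106 FPKM in WT, 221 in arp8d, 215 in arp5d, 229 in ies6d and 375 in ino80d. Both were lowest in WT and highest in ino80d, with log2 ratios of ino80d to the other mutants of 0.68 and 0.75. UIP3 (YAR027W, 183770 to 184477), on the other side of KTD1, lay at 156, 187, 174, 187 and 275 FPKM, so that WT and 3 mutants were near each other and ino80d stood above, with a ratio of 0.59. UIP3 and KTD1 are 69.2% identical, and 47 of the first 50 coding bases printed above are the same. The UIP3 and DFP2 windows each hold 2 stress response elements, and 1 of those of UIP3 lies within its coding bases, and the KTD1 window holds none.

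Over the 6 DUP240 genes measured, the log2 ratio of ino80d to the other mutants ran from 0.36 to 0.75 with a median of 0.49. Of the 6, 3 were at least 1.5-fold higher than WT in ino80d, beside 14.9% of all rows and 56 of the 92 genes. KTD1 and DFP2 were so in each other mutant as well, beside 8.31% of all rows. PRM9 (YAR031W), next to DFP2, lay at 26.9 FPKM in WT, 27.2 in arp8d, 25.8 in arp5d, 31.5 in ies6d and 37.0 in ino80d. MST28 (YAR033W) lay at 31.3, 25.4, 21.6, 21.8 and 29.6 FPKM, with WT at the top and ino80d next. The tandem genes thus differed in how they stood to WT, while in each ino80d was above the other mutants.

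**Figure D4:**
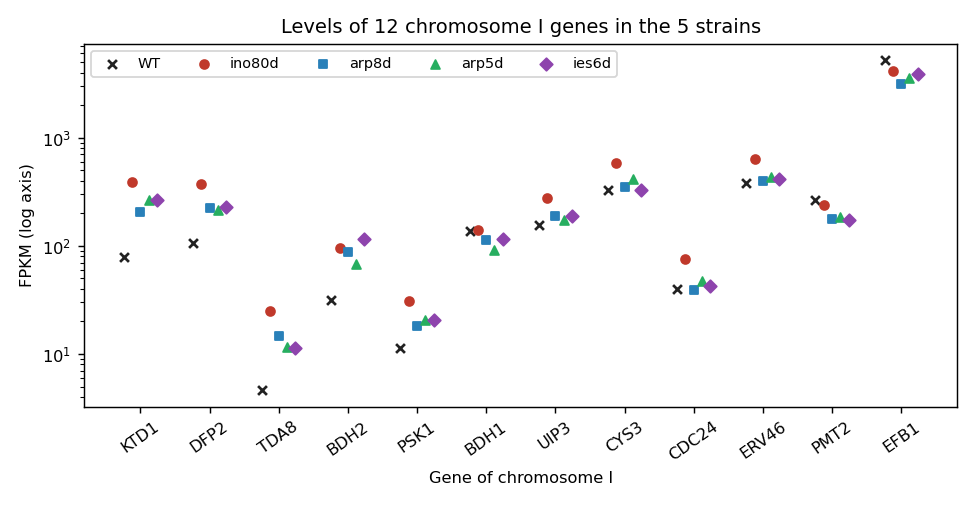
The FPKM of 12 chromosome I genes is plotted on a log axis, with 1 symbol per strain and no error bars because each strain has 1 value. KTD1, DFP2, TDA8, BDH2 and PSK1 have WT below every mutant. UIP3, CYS3, CDC24 and ERV46 have ino80d above 4 strains that lie closer together, and PMT2 and EFB1 have WT on top.

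The members are given next by role, and the counts by role are small. Those at least 1.5-fold higher in ino80d than in WT are to be read beside 14.9% of all rows and 56 of the 92 genes, and none is a result about a role. Over 5 metabolic enzyme genes the median log2 ratio of ino80d was 0.77 to WT and 0.42 to the other mutants. Of the 5, 4 were at least 1.5-fold higher than WT, among them BDH2, and 2 were so against the other mutants, beside 1.85% of all rows and 41 of the 92. CYS3 (YAL012W, 130799 to 131983), the cystathionine gamma-lyase that makes cysteine, lay at 330.1 FPKM in WT, 349 in arp8d, 419 in arp5d, 327 in ies6d and 581 in ino80d. GDH3 (YAL062W), a glutamate dehydrogenase, lay at 18.0, 18.7, 18.4, 16.8 and 29.6 FPKM. In both ino80d was highest.

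Genes of transcription, chromatin and mRNA processing had log2 ratios of ino80d to the other mutants from 0.50 to 0.75 over 9 genes, with a median of 0.62. Of the 9, 5 were at least 1.5-fold higher than WT in ino80d, near the share of the 92 genes. DEP1 (YAL013W), a subunit of the Rpd3L histone deacetylase, lay at 59.7 FPKM in WT, 74.1 in arp8d, 75.4 in arp5d, 71.5 in ies6d and 122.5 in ino80d. FUN30 (YAL019W), a chromatin remodeller of its own family, lay at 36.4, 32.8, 34.0, 34.1 and 52.5 FPKM. CCR4 (YAL021C), the main mRNA deadenylase, had a log2 ratio of 0.38 to WT and 0.50 to the other mutants.

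Over 7 genes of translation and ribosome assembly the median log2 ratio of ino80d was 0.29 to WT and 0.49 to the other mutants. The median log2 ratio to WT was -0.16 in arp8d, -0.22 in arp5d and 0.07 in ies6d. Of the 7, 2 were at least 1.5-fold higher than WT in ino80d, beside 14.9% of all rows and 56 of the 92 genes. EFB1 (YAL003W, 142174 to 143160), the beta subunit of elongation factor 1, has 2 coding exons and a small RNA gene within its span. It lay at 5172 FPKM in WT, 3120.5 in arp8d, 3551 in arp5d, 3853 in ies6d and 4147 in ino80d, with every mutant below WT and ino80d the highest of them. Its log2 ratio of ino80d to WT was -0.32, and to the other mutants 0.25. MAK16 (YAL025C), an assembly factor of the large ribosomal subunit, lay at 297, 265, 283, 312 and 403 FPKM.

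Over 12 genes of the secretory pathway the median log2 ratio of ino80d was 0.45 to WT and 0.50 to the other mutants. Of the 12, 5 were at least 1.5-fold higher than WT, beside 14.9% of all rows and 56 of the 92 genes. ERV46 (YAL042W), a protein of vesicles between the endoplasmic reticulum and the Golgi, lay at 381 FPKM in WT, 398 in arp8d, 431 in arp5d, 411 in ies6d and 635 in ino80d. PMT2 (YAL023C), an O-mannosyltransferase of the endoplasmic reticulum, lay at 264, 176, 183, 174 and 240.0 FPKM. ERP2 (YAL007C), a p24 cargo protein, lay at 356, 265, 275, 282 and 350.4 FPKM. In PMT2 and ERP2, ino80d was near WT and the other mutants were lower, while ERV46 stood out in ino80d alone. SNC1 (YAL030W, 87286 to 87752), a v-SNARE gene with 2 coding exons, had a log2 ratio to the other mutants of 0.22, with ies6d, at 301 FPKM, just above ino80d, at 296.

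Genes of cell division, polarity and the cytoskeleton had log2 ratios of ino80d to the other mutants from 0.46 to 0.80 over 9 genes, with a median of 0.55. Of the 9, 5 were at least 1.5-fold higher than WT in ino80d, near the share of the 92 genes. CDC15 alone of them was so in each other mutant, beside 8.31% of all rows. CDC15 (YAR019C, 172211 to 175135), a kinase of the mitotic exit network, lay at 9.71 FPKM in WT, 16.4 in arp8d, 18.1 in arp5d, 16.6 in ies6d and 23.8 in ino80d. TPD3 (YAL016W), the scaffold subunit of protein phosphatase 2A, lay at 133, 136, 142, 125 and 188 FPKM. WT stood below all mutants for CDC15 and among 3 of them for TPD3.

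Over 8 genes of mitochondria and peroxisomes the median log2 ratio was 0.74 to WT and 0.53 to the other mutants, and 6 were at least 1.5-fold higher than WT in ino80d, beside 14.9% of all rows and 56 of the 92 genes. YAT1 (YAR035W), a carnitine acetyltransferase, lay at 3.97 FPKM in WT, 4.82 in arp8d, 7.27 in arp5d, 6.79 in ies6d and 10.1 in ino80d. BOL1 and BOL3, neighbouring genes for assembly factors of iron-sulfur proteins, differed against WT. BOL1 (YAL044W-A) lay at 309, 224, 255, 257 and 311 FPKM and BOL3 (YAL046C) at 210.5, 232, 264, 311 and 334 FPKM. In both, ino80d was the highest strain.

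For the 3 genes of DNA repair and nuclear pores the median log2 ratio was 0.62 to WT and 0.62 to the other mutants. NTG1 (YAL015C), a DNA glycosylase of base excision repair, lay at 39.8 FPKM in WT, 52.0 in arp8d, 67.7 in arp5d, 72.9 in ies6d and 101.2 in ino80d. Of the signalling genes, PSK1 (YAL017W), a PAS kinase of sugar metabolism, lay at 11.2, 18.2, 20.5, 20.5 and 30.9 FPKM, and GPB2 (YAL056W), a regulator of protein kinase A signalling, at 39.8, 45.0, 43.6, 44.3 and 66.7 FPKM. WT was lowest in each, and for GPB2 it was near the 3 other mutants. The 4 flocculin, seripauperin and permease genes that passed the filter were all at least 1.5-fold higher than WT in ino80d, beside 14.9% of all rows and 56 of the 92 genes. Their median log2 ratio was 1.22 to WT and 0.60 to the other mutants.

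Across the genome the ratio varied with level. Over the 6058 other rows, Spearman's rho between WT FPKM and the log2 ratio of ino80d to the other mutants was -0.35, and over the 92 genes it was -0.10. The 31 genes with the lowest WT level, 2.42 to 21.2 FPKM, had a median ratio of 0.54, the 30 in the middle 0.58, and the 31 highest, from 71.3 FPKM up, 0.48. Other rows in the same ranges of WT level had medians of 0.06, 0.05 and -0.07. The 340 other rows of at least 1000 FPKM in WT had a median of -0.26, with 10th and 90th percentiles of -0.45 and -0.02, while EFB1 and YAL037C-B had 0.25 and 0.06. Both lay above the 90th percentile of rows of like level and below the median of their chromosome. For YAL037C-B, overlap with another gene was not checked.

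**Figure D5:**
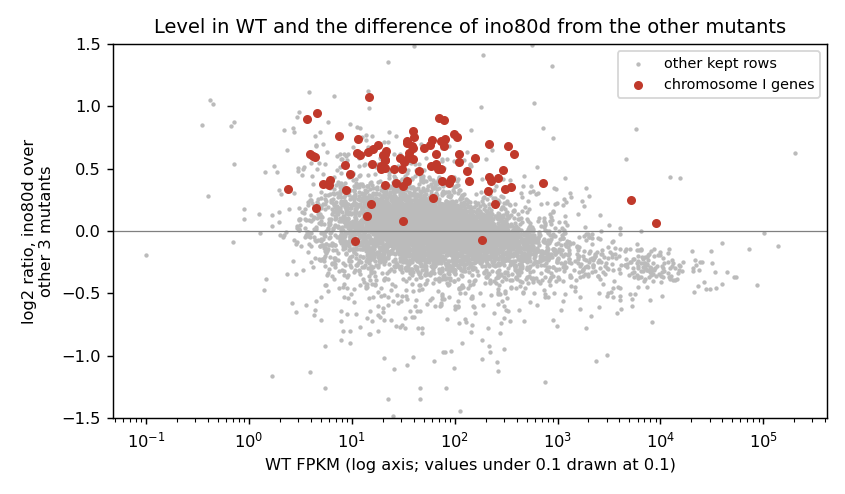
WT FPKM on a log axis is set against the log2 ratio of ino80d to the mean of the other 3 mutants for the 92 chromosome I genes (red) and the other rows that pass the filter (grey). The y axis ends at 1.5 either way and leaves out 12 grey points. Most red points lie in the upper part of the grey cloud or above it, at low, middle and high levels.

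The motifs searched upstream were about as frequent on chromosome I as elsewhere. The stress response element was found on either strand in 19 of the 76 annotated genes' windows (25%), against 21.6% of 6001 windows of protein-coding genes. It was in 1 of the 8 annotated genes that were 1.5-fold higher than WT in all of arp8d, arp5d and ies6d, namely DFP2. The Pho4 and Cbf1 core CACGTG was in 2 windows, those of CYS3 and DRS2 (2.63%, against 2.92% of all), and the Gcn4 core TGACTCA, or TGAGTCA on the other strand, in 2, those of DEP1 and GEM1 (2.63%, against 2.73%). A match is a description, not a site in use.

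At the threshold of the rule, the lowest genes inside were YAR009C, with a mean of 5.35 FPKM, FLO1 with 6.38 and YAT1 with 6.58. The highest outside were LDS1 with 4.48, YAR068W with 4.17 and YAL064W with 3.55. DNA was not measured, so the number of copies of chromosome I in each strain was not tested.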

How the data were processed

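RNA levels of 5 strains were analysed from 1 table of the whole series. Its values are FPKM computed by the authors, 1 per gene and strain for 2 merged biological replicates. TopHat2 and Cuffdiff are named in the submitters' processing notes, with build sacCer3, whose assembly is the R64 used here for symbols, positions and sequences. Versions, annotation and library scaling are not given in the sources used here. Of 6567 rows, 5888 IDs matched an R64 locus tag.

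From the deposited FPKM, log2 ratios were taken with a pseudocount of 1, without rescaling, for rows with a mean of at least 5 FPKM and above 0 in all 5 strains. Without replicate values or depth there is no test, counting interval or detection limit. Copies were sought by blastn 2.17.0, and other steps used Python 3.11.15 with pandas 2.3.3. The steps were tested on simulated data. The tolerance for a moved median was 0.1 on the log2 scale.

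The genes, role lists, motifs and alternatives were chosen with earlier results of these data known. Named genes were those at the extremes and the median of each ratio, at the ends and the centromere, of highest level, 2-fold from WT in another mutant, or of highest level in a role list. GDH3, FUN30, PRM9, YAT1, SNC1, CDC15, the genes of the closing section and the 5 printed sequences fall outside that rule and were chosen after their values were seen.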

Additional observations from a re-analysis of the deposited data

How the results depend on the processing

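No paired analysis was possible because each strain has 1 value for its merged replicates. For the same reason no replicate could be left out. Of 78 recomputed values, 69 stayed within the tolerance (0.1 on the log2 scale, or 1.5 times for a count). The median log2 ratio of ino80d to the other 3 mutants ran from 0.49 with a pseudocount of 5 FPKM to 0.57 without genes that have a copy, an overlap or no annotation, a choice made after seeing the data. With a pseudocount of 5 FPKM, 25 genes in place of 41 were at least 1.5-fold higher in ino80d than in the other mutants. At a threshold of 2-fold, 1 gene was, and 22 in place of 56 were higher than WT. The number at least 1.5-fold from the common value, 2 as reported, was 0 with a pseudocount of 5 FPKM, 0 among annotated ORFs of at least 300 bp, 0 at 2-fold, 4 with no filter, 1 with a filter at 20 FPKM and 1 without genes that have a copy, an overlap or no annotation. The left arm median was 0.02 above that of the right arm as reported, but -0.04 from it with a filter at 20 FPKM and -0.03 without genes with a copy, an overlap or no annotation, so the arms have no stable order. Centring each strain moved medians by less than 0.03. Depth is unknown, so values of a few FPKM have unknown counting error.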

Other observations

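Of the 10 chromosome I genes left out by name, 8 pass the filter, and 5 of them were close to the common value. The log2 ratio of ino80d to the other 3 mutants was 0.72 for SWC3, of the SWR1 complex, 0.62 for ACS1, an acetyl-CoA synthetase, 0.55 for CLN3, a G1 cyclin, 0.50 for RFA1, of the single-strand DNA binding protein RPA, and 0.42 for ADE1, of purine synthesis. The other 3 were near 0. GCV3, of glycine cleavage, had 0.17, CDC19, the pyruvate kinase, 0.08, and SSA1, a heat shock protein 70, 0.00. SSA1 lay at 151 FPKM in WT, 205 in arp8d, 204 in arp5d, 206 in ies6d and 205 in ino80d, so that the 4 mutants were level with each other. CDC19 lay at 1024 FPKM in WT, 2347 in arp8d, 1760.3 in arp5d, 1969 in ies6d and 2120.2 in ino80d. YAL037C-B, whose ID stands next to that of CDC19 (YAL038W) by number, went the other way, below WT in every mutant. How reads were shared between these rows was not tested, so the change of CDC19 RNA is uncertain. PHO11, an acid phosphatase gene near the right end, lay at 15.2, 3.62, 2.43, 1.90 and 1.43 FPKM, with ino80d the lowest strain.

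The 10 chromosome I rows that did not pass the filter include 4 listed at 0 in at least 1 strain. LDS1, a gene of spore wall formation, lay at 0.727 FPKM in WT, 3.47 in arp8d, 5.72 in arp5d, 4.24 in ies6d and 8.25 in ino80d, with a log2 ratio of ino80d to the other mutants of 0.78. PAU8, the seripauperin gene next to the left telomere, lay at 5.43, 1.75, 0.328, 0.465 and 0.989 FPKM, with every mutant below WT.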
